A study of Mus musculus with 6 samples.

Results

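Foxj1 and 37 further genes of the motile cilia program were followed in 410.4 cells, a mouse mammary carcinoma cell line, grown in a medium that carried neutrophil extracellular traps (NETs) or in a control medium. The 38 genes were taken by exact symbol from the 55809 gene symbols of the deposited count table. They comprise the factors that switch on ciliogenesis, the parts of the ciliary axoneme and a pair of intraflagellar transport genes. Members were selected on the measured rise of Foxj1 between these same NET and control counts, so their values, and whether each passed the test over all genes, describe the samples and support nothing further. No p-value is printed for a member. NETs are webs of chromatin and granule proteins that activated neutrophils release. Control cells (titled Veh) were kept for 2 days in DMEM with 0.5% fetal calf serum, and NET cells for 2 days in the same base medium into which NETs had been collected. Each group held 3 libraries of the one line, with no other genotype or drug. The labels do not say that the 3 libraries of a group came from separate cultures, so their spread may be technical, and NETs cannot be told apart from other differences between the media.

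Motile cilia are built by multiciliated cells of the airway, the brain ventricles and the oviduct, and sperm build a related tail. In textbook accounts GMNC (geminin coiled-coil protein) and MCIDAS (multicilin) start the program and CCNO helps to multiply the basal bodies. The forkhead factor FOXJ1 and the RFX factors then turn on the genes of the axoneme. The axoneme holds microtubule doublets driven by dynein arms, around a central pair that is linked to the doublets by radial spokes. Intraflagellar transport, which carries these parts into the cilium, also serves the immotile primary cilium that many cell types can form.

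Foxj1 rose steeply with NETs, while 20 of the 38 genes on the list, most of them parts of the axoneme, stayed at or under 6 counts in both media. Of the 38 members, 8 had a count of 0 in every library (Mcidas, Gmnc, Rsph1, Rsph4a, Spag16, Ccdc113, Tekt1 and Tekt4). A further 12 never exceeded 6 counts (Dnah1, Dnah9, Dnai1, Dnali1, Dnaaf1, Rsph9, Lrrc23, Spag17, Hydin, Ak7, Drc1 and Cfap44). That number is the limit a count of 0 allows here, 3 fragments with both mates counted, and it corresponds to 0.0902 to 0.199 CPM (counts relative to library size, scaled by TMM) depending on the library. Another 5 exceeded it in at least 1 library but were too low to be tested (Ccno, Dnah11, Dnai2, Zmynd10 and Cfap43). The remaining 13 passed the low-count filter. Over all symbols of the table, unselected for any function, 25% were tested and 54.2% were at 0 in every library. By both measures the members, Foxj1 included, were detected more often than symbols at large. The same held for 39 genes of the primary cilium membrane and transition zone, of which 37 were tested. The share at or under 6 counts was not computed over all symbols. The label of a motile cilia program is used here only as the name of the list. Limits for a count of 0 cover counting error only, while the intervals of fold changes, from the edgeR fit, also include the spread between libraries.

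**Figure D1:**
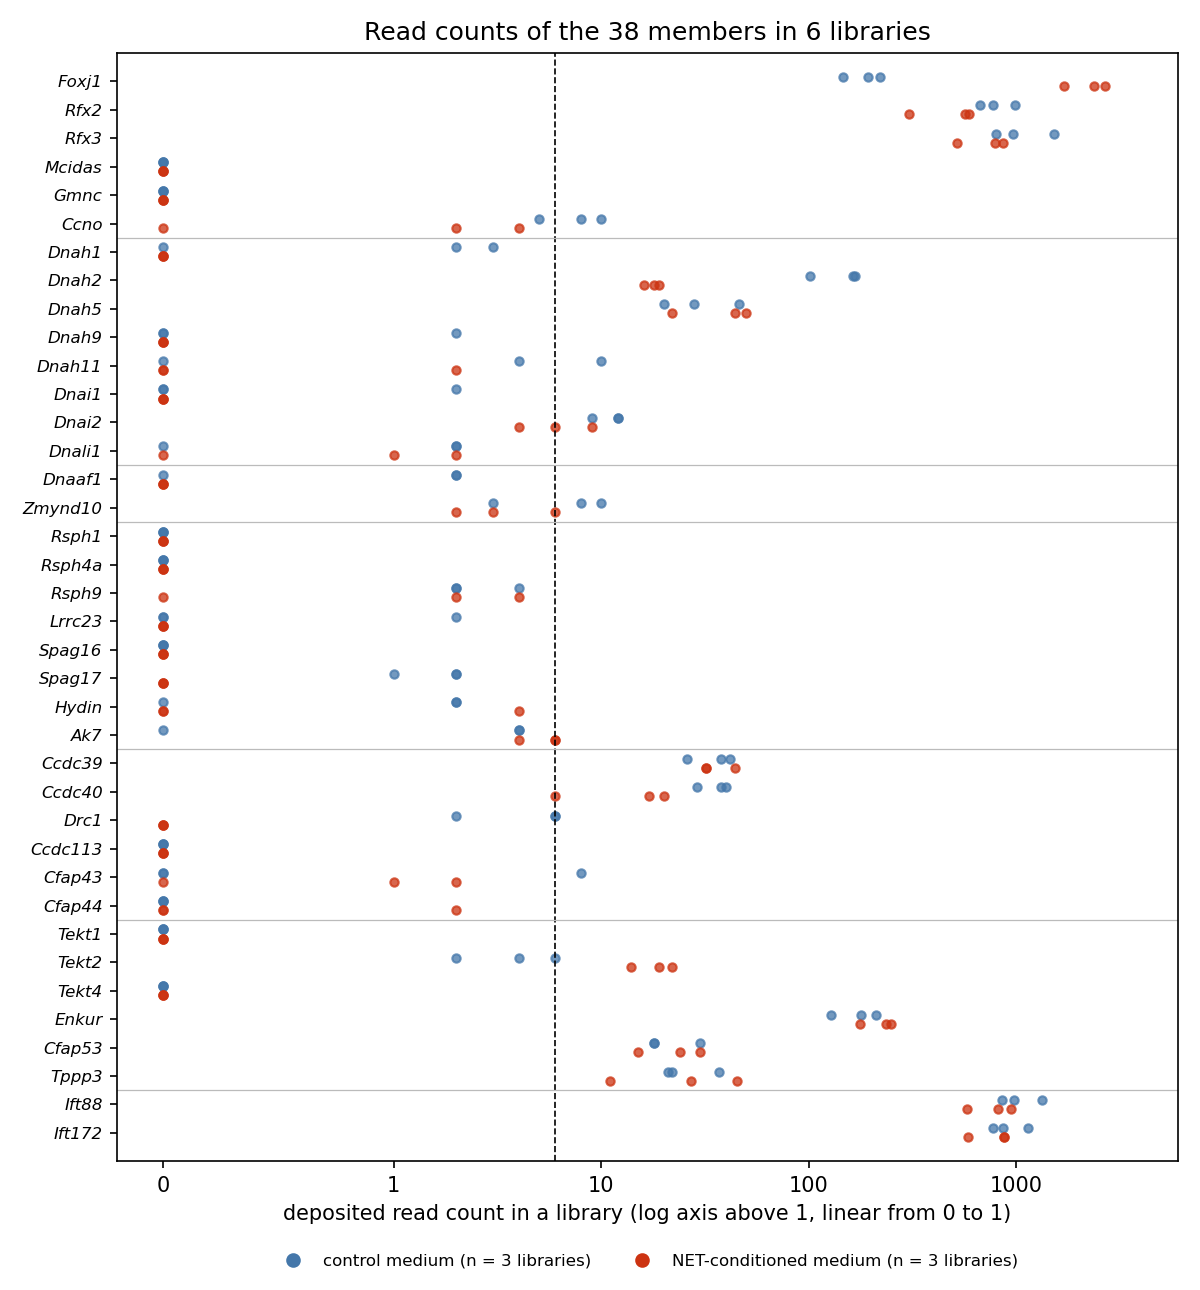
Deposited read count of each of the 38 members in each of the 6 libraries, by role from regulators (top) to intraflagellar transport (bottom). Points are libraries, the dashed line marks 6 counts, and libraries are not scaled for depth. Foxj1 lies between 146 and 220 counts in control medium and between 1703 and 2680 with NETs, while 20 members stay at or left of the dashed line.

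The libraries held 31119105 to 64431811 counts each. In all, 13956 genes were tested, and a gene is termed called where its adjusted p in edgeR's quasi-likelihood test was under 0.05. By that measure 38.9% of all tested genes were called, 20.2% higher and 18.7% lower with NETs. With libraries scaled by total count alone the calls were 2106 higher and 3763 lower, against 2825 and 2605 with the scaling used here. The line's epithelial markers were present, with Epcam at 685 CPM in control libraries against 655 CPM in NET libraries. Of 12 such markers 3 rose and 3 fell, among them Cldn4, which rose 2.09-fold, and Krt18, which fell 1.21-fold (adjusted p = 1.15e-07 and 0.000377). Of 20 neutrophil markers 8 were at 0 in every library (Elane, Ctsg, Camp, Ngp, Retnlg, Csf3r, Mmp8 and Cd177) and 5 were tested. The summed level of the list was 1362 to 1745 CPM in control libraries against 845 to 910.4 CPM in NET libraries, mostly of Lcn2 and Ltf, genes that epithelial cells also express and that both fell. Of the other 3 tested neutrophil markers S100a8 rose 1.91-fold and Fcgr3, named after its values were seen, rose from at most 4 counts in a control library (adjusted p = 0.00136 and 0.00803), while Cxcr2, with a log2 fold change of 1.08, was not called. Fcgr3 passed the low-count filter only through the NET libraries, where it is high. The list median was 0.94 on the log2 scale. Of 10 markers of other leukocytes 6 never exceeded 6 counts (Adgre1, H2-Aa and Nkg7 at 0) and 4 were tested, of which Csf1r rose 3.34-fold and Cd74 1.71-fold (adjusted p = 1.65e-12 and 0.000723). Their summed level was 57.8 to 63.8 CPM in control libraries against 117 to 123 CPM in NET libraries, most of it Csf1r, whose exons overlap Hmgxb3 on the other strand. Of 10 fibroblast markers 3 were at 0 (Dcn, Lum and Thy1) and 3 were tested, of which Col1a1 rose 11.3-fold (adjusted p = 2.34e-11), and the sum was 43.99 to 50.1 CPM against 60.2 to 70.1 CPM. The part of RNA from other cells in the values below was not tested.

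Foxj1, the forkhead factor that gives the set its name, measured 3.31, 3.23 and 3.50 CPM in control libraries against 52.9, 56.6 and 51.9 CPM in NET libraries. The groups lay far apart and the libraries within each were close together. The mean went from 3.35 ± 0.142 to 53.8 ± 2.43 CPM (SD, n = 3), a 16.0-fold rise (SE 0.08, 95% interval 3.84 to 4.17 on the log2 scale). Only 37 of the 13956 tested genes had a larger log2 fold change. Per length, Foxj1 moved from 1.28 to 20.5 CPM per kb, that is from above 25.8% of the tested genes in control medium to above 79.7% of them with NETs. The notes name the build mm10, but the coordinates of the deposited table mostly do not match it. In that table the gene spans positions 116221530 to 116226225 of chromosome 11 on the minus strand, exons and intron included, and no exon of another gene overlaps it.

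The RFX members, whose products bind the X-box of cilium gene promoters and act beside FOXJ1, did not rise. Rfx2 measured 14.9, 14.8 and 14.1 CPM in control libraries against 12.7, 10.1 and 11.5 CPM in NET libraries. It fell by 0.34 on the log2 scale (SE 0.09), and its groups did not overlap. Rfx3 measured 22.9, 17.8 and 17.6 CPM in control libraries against 17.6, 17.2 and 16.8 CPM in NET libraries. Control replicate 1 stood above the other 5 libraries, the groups were separate by a narrow margin, and the gene was not called (log2 fold change -0.18, 95% interval -0.38 to 0.02). Without control replicate 1 the log2 fold change of Rfx3 was -0.04. Per length, Rfx2 and Rfx3 stood at 1.99 and 1.76 CPM per kb in control medium, above Foxj1 at 1.28, and at 1.56 each with NETs, far below Foxj1 at 20.5.

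The upstream regulators of multiciliation were at or near 0. Mcidas and Gmnc had no count in any of the 6 libraries. With NETs, the level of Foxj1 per length was at least 257-fold above the limit for Mcidas and at least 621-fold above that for Gmnc in each library. Ccno, the cyclin O gene, had 5, 8 and 10 counts in control medium and 0, 2 and 4 counts with NETs, too few to be tested.

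**Figure D2:**
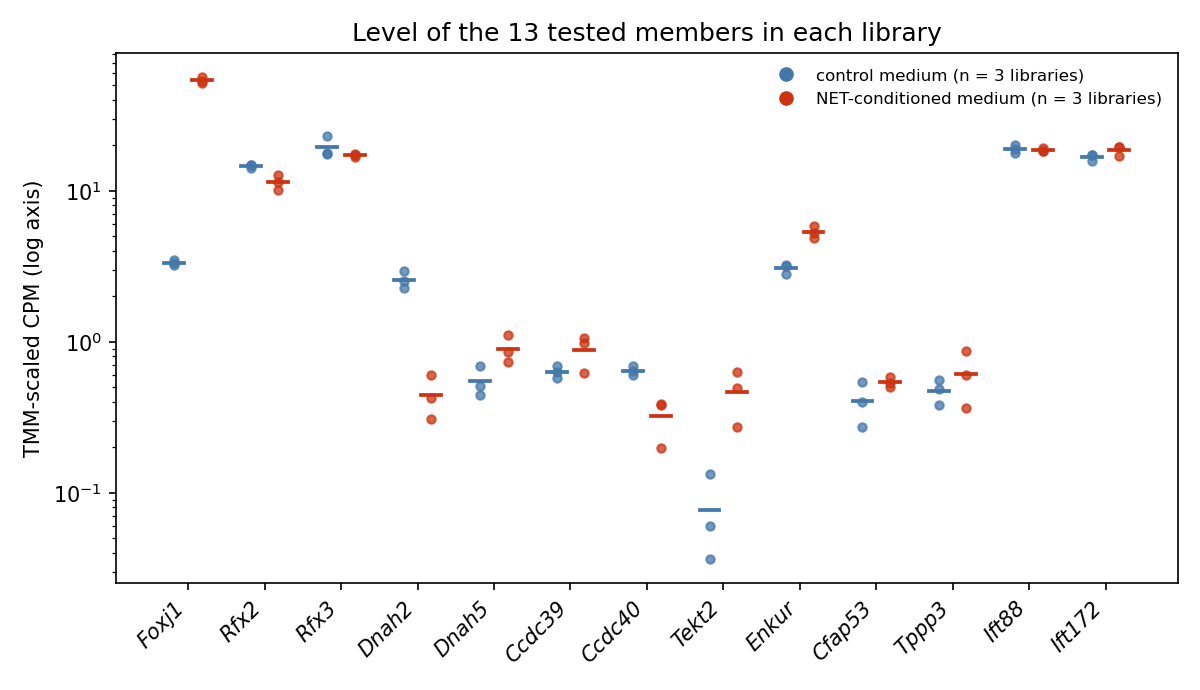
TMM-scaled CPM (log axis) of the 13 members that passed the low-count filter. Points are the 3 libraries of each medium and bars their means. Foxj1 has a mean of 3.35 CPM in control libraries against 53.8 CPM in NET libraries, a gap wider than that of any other member shown.

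The promoters of the members were searched for the RFX and forkhead motifs, because members that share a motif could be compared by whether they moved with Foxj1. The RefSeq table (build GRCm38.p6) gave a window of 300 bases, from 250 before to 50 after a start, for 30 of the 38 members, leaving Foxj1, Dnai1, Dnai2, Dnaaf1, Rsph1, Rsph4a, Cfap53 and Tppp3 without one. Windows were searched on both strands, and a member counted once if any of its windows held a match. The 14-letter X-box consensus lay in 4 of 30 members (13.3%), Ccno, Cfap44, Hydin and Spag16, against 0.796% of all 27025 gene symbols in that table. All 4 of those members were below the filter. GTTGCC, the usual first arm of the X-box, lay in 17 of 30 (56.7%) against 14.1% of all genes, among them 6 of the 10 tested members with a window (Rfx2, Rfx3, Enkur, Tekt2, Ift88 and Ift172) and 11 of the 20 that were below the filter. The 6-letter motif overlaps the consensus and was added after the longer one had been counted. The forkhead motif TGTTTAC lay in 2 of 30 (6.67%), Ak7 and Cfap43, against 4.05% of all genes. A match describes the letters of the window and does not show that a factor binds there.

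Of these windows 4 are printed to show how members of unlike behaviour compare in sequence. They belong to Enkur and Tekt2 (called higher), to Hydin (at most 4 counts in any library) and to Dnah2, which fell. Tekt2 was tested only through its NET libraries. Capitals mark GTTGCC on either strand (GGCAAC on the other) and, in Hydin, the whole X-box match GTTGCTGTGGCAAC. The Dnah2 window holds neither. These windows do not tie the motif to a direction: GTTGCC also lay in Rfx2, which fell, and in Rfx3, Ift88 and Ift172, which were not called. Another window of Tekt2, which starts at position 126325386 and is not printed, holds no GTTGCC. Each runs 5′ to 3′ on the gene's strand, in GRCm38.p6.
Enkur (chr2:21205316-21205615, minus strand): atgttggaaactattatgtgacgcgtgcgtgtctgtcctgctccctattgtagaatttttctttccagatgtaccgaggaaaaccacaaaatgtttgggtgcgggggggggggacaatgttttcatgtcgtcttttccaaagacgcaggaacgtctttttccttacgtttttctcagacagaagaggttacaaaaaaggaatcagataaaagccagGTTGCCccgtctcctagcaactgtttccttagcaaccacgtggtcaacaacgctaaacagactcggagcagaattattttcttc
Tekt2 (chr4:126325597-126325896, minus strand): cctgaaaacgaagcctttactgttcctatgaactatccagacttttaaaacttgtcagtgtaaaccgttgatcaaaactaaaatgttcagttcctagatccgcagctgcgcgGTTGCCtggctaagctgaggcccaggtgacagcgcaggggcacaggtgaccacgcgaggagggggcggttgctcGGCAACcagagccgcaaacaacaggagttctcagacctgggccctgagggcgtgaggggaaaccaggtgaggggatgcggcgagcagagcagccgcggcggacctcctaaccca
Hydin (chr8:110266727-110267026, plus strand): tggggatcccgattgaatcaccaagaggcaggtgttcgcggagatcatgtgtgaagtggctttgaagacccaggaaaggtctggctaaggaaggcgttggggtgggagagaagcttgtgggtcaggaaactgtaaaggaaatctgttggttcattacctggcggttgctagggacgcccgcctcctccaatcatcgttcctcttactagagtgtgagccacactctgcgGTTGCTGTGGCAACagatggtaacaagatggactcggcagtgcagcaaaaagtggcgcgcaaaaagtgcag
Dnah2 (chr11:69549059-69549358, minus strand): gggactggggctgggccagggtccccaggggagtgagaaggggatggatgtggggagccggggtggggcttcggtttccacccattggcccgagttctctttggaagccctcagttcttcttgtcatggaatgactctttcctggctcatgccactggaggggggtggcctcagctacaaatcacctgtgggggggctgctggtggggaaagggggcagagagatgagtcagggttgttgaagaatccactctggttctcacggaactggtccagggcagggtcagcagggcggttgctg
The short motif of Enkur begins 34 bases before the start, those in this window of Tekt2 138 and 64 bases before it, and the X-box match of Hydin 21 bases before it.

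Among the dynein arm genes, which encode the motors of the beating axoneme, only 2 of 8 were high enough to be tested. Dnah2, an inner arm heavy chain, measured 2.51, 2.26 and 2.96 CPM in control libraries against 0.424, 0.598 and 0.310 CPM in NET libraries. The groups lay far apart, and the gene fell by 2.59 on the log2 scale (SE 0.26), or 6.02-fold, in the direction opposite to Foxj1. It spans positions 69311635 to 69439936 of chromosome 11 in the deposited table. Its exons overlap those of Dnah2os, a gene on the other strand whose counts were 34, 31 and 45 in control medium and 4, 0 and 4 with NETs. How strand was treated in counting is not stated in the labels, so reads of the pair cannot be told apart. Dnah5, an outer arm heavy chain, measured 0.691, 0.442 and 0.508 CPM in control libraries against 1.12, 0.731 and 0.853 CPM in NET libraries. It was not called (log2 fold change 0.71, 95% interval 0.03 to 1.39), although its groups did not overlap.

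The other dynein arm and assembly genes were near 0. Dnah1, Dnah9 and Dnai1, genes of heavy chains and of an intermediate chain, had at most 3 counts in a control library and 0 in all NET libraries. Dnai2, another intermediate chain, had 12, 12 and 9 counts in control medium and 9, 4 and 6 counts with NETs. Dnah11 had 10, 0 and 4 counts and then 2, 0 and 0, and its exons overlap the well expressed Cdca7l on the other strand. Of the factors that assemble dynein arms in the cytoplasm, Dnaaf1 had at most 2 counts in any library. Zmynd10 had 8, 3 and 10 counts in control medium and 6, 2 and 3 with NETs. Dnali1, a light intermediate chain gene, had at most 2 counts in any library. None of these genes reached a level that could be tested.

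Radial spokes and the central pair, which set the waveform of the beat, had none of 8 members tested, and all 8 were at or under 6 counts in every library. Rsph1, Rsph4a and Spag16 were at 0 in every library. Rsph9, Lrrc23, Spag17, Hydin and Ak7 reached at most 6 counts, in Ak7 with NETs. The 8 genes together added up to 0.0726 to 0.221 CPM in control libraries against 0.194 to 0.223 CPM in NET libraries.

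Of the molecular rulers, the nexin link and the tether genes, 2 of 6 were tested and neither was called. Ccdc39 and Ccdc40 encode partners that form the ruler of the axonemal repeat. Their estimates had opposite signs, and the difference between the pair was not tested. Ccdc39 measured 0.631, 0.575 and 0.690 CPM in control libraries against 0.982, 1.06 and 0.620 CPM in NET libraries, with overlapping groups (log2 fold change 0.46, 95% interval -0.21 to 1.13). Its exons overlap Ttc14 on the other strand, which had 951 to 2158 counts per library. Ccdc40 measured 0.601, 0.641 and 0.690 CPM in control libraries against 0.379, 0.199 and 0.388 CPM in NET libraries. Its groups did not overlap, and its log2 fold change of -0.94 (95% interval -1.73 to -0.16) was not called. Ccdc40 was called with upper-quartile factors, library size alone, limma-voom and halved counts (-0.97, -1.01, -0.95 and -0.93). It passed the low-count filter only through the control libraries, where it is high, so these calls carry no weight as a fall. Drc1, of the nexin-dynein regulatory complex, had 6, 6 and 2 counts in control medium and 0 in each NET library. Cfap43 and Cfap44, which tether dynein heads, had at most 8 and 2 counts, and Ccdc113 was at 0.

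Among the axonemal members Enkur and Tekt2 were called higher, but the call of Tekt2 carries no weight, as given below. Enkur, a microtubule inner protein known from sperm and cilia, measured 3.17, 2.83 and 3.23 CPM in control libraries against 5.27, 5.84 and 4.85 CPM in NET libraries. The groups did not overlap, and the gene rose 1.71-fold (log2 fold change 0.78, SE 0.14). Tekt2, a tektin filament gene, had 4, 6 and 2 counts in control medium and 22, 19 and 14 counts with NETs, or 0.0764 ± 0.0502 against 0.464 ± 0.181 CPM (SD, n = 3). Every control library was at or under the limit for a count of 0, so the size of its rise is poorly fixed: the log2 fold change was 2.59 with a 95% interval of 1.35 to 3.82. Tekt2 passed the low-count filter only through the NET libraries, where it is high, so its call carries no weight as a rise among the scarce members. Enkur spans positions 21185542 to 21210176 of chromosome 2 and Tekt2 126215914 to 126219481 of chromosome 4 in the deposited table. Exons of Tekt2 overlap Gm12945 on the other strand, which had at most 2 counts.

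No further gene among the microtubule inner proteins and tubulin binders was called. Tekt1 and Tekt4, the other tektins on the list, were at 0 in all libraries. Cfap53, a further inner protein, measured 0.271, 0.398 and 0.545 CPM in control libraries against 0.535, 0.498 and 0.581 CPM in NET libraries. Tppp3, a tubulin-binding gene that marks ciliated cells, measured 0.556, 0.487 and 0.381 CPM and then 0.602, 0.365 and 0.872 CPM. Both overlapped between the groups and neither was called (log2 fold changes 0.43 and 0.41, 95% intervals -0.37 to 1.24 and -0.39 to 1.20). These intervals include 0 as well as the log2 fold change of Enkur (0.78), so the values do not decide whether Cfap53 and Tppp3 rose.

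Ift88 and Ift172, subunits of the anterograde transport trains, were the members best expressed per length in control medium. Ift88 measured 19.99, 19.0 and 17.7 CPM in control libraries against 18.3, 19.2 and 18.3 CPM in NET libraries. Its groups overlapped, and the 95% interval of its log2 fold change ran from -0.19 to 0.13. Ift172 measured 17.2, 17.2 and 15.7 CPM and then 19.5, 19.5 and 16.9 CPM, again with overlap (log2 fold change 0.15, 95% interval -0.02 to 0.33).

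Of the 13 tested members 3 were called higher (Foxj1, Enkur and Tekt2) and 2 lower (Rfx2 and Dnah2), beside 20.2% and 18.7% of all tested genes. Tekt2 entered the test only through its NET libraries. Leaving out Foxj1, on whose rise the set was selected, 2 were called higher and 2 lower of 12. As the members were selected on this contrast, nothing is read from these counts. Values of control and NET libraries were fully separate for 8 of the 13, Foxj1 among them, against 49.0% of all tested genes. The median log2 fold change was 0.41 over the 13 and 0.28 over the 12 without Foxj1, against -0.0039 for all tested genes. The median over the 13 rests on which members pass the filter: it was -0.27 over the 30 members with any count and -0.03 over the 7 with at least 1 CPM in 3 libraries, and 0.19 without control replicate 1. The 37 members other than Foxj1 added up to 74.8 to 84.5 CPM in control libraries against 72.7 to 78.6 CPM in NET libraries, with overlapping ranges. Most of that sum is Rfx2, Rfx3, Ift88 and Ift172. The 30 axonemal members, without regulators and transport genes, added up to 8.63 to 9.57 CPM and then 9.15 to 10.5 CPM. Within this sum Enkur and Dnah2 moved in opposite directions, with means from 3.08 to 5.32 CPM and from 2.58 to 0.444 CPM. The sum does not show that each axonemal gene was unchanged.

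**Figure D3:**
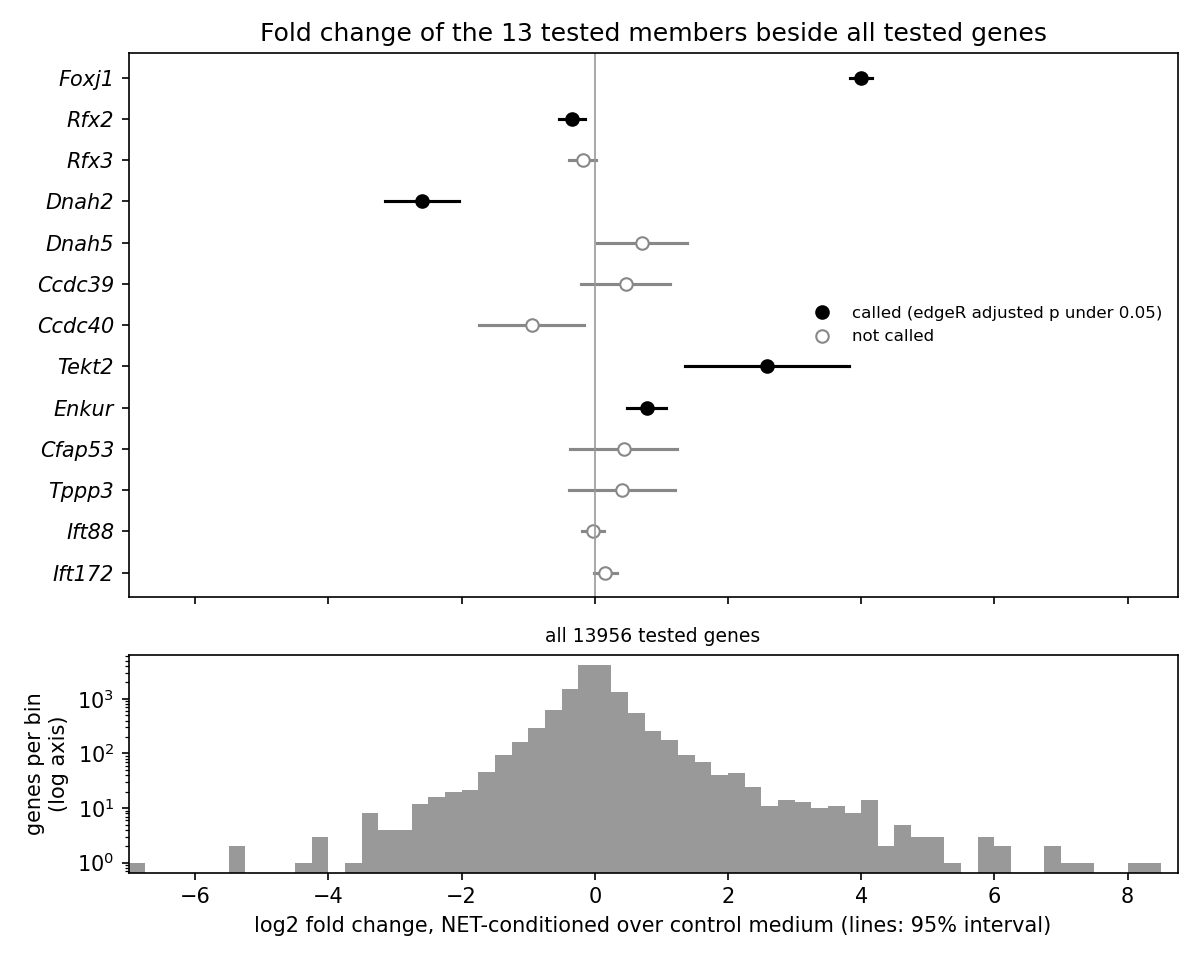
Log2 fold change of NET-conditioned over control medium for the 13 tested members (points, with 95% intervals as lines; filled where called), above a histogram of all 13956 tested genes (log axis). Foxj1 (16.0-fold) is the rightmost member and Dnah2 the leftmost at -2.59, while Ift88 and Ift172 lie near 0 with narrow intervals.

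Further axonemal genes outside the set gave few calls. Of 66 listed genes, among them more dynein chains, docking complex and assembly genes, 38 never exceeded 6 counts in any library, 19 of them at 0 throughout, and 25 were tested. Over all symbols 54.2% were at 0 and 25% were tested. In edgeR 1 rose and 4 fell, beside 20.2% and 18.7% over all tested genes, with a median log2 fold change of 0.0065. Spef1, a microtubule-bundling gene of the central apparatus, fell 1.54-fold from 8.31 ± 0.616 to 5.41 ± 0.394 CPM (SD, n = 3, adjusted p = 0.000284), and its exons overlap Cenpb and Cdc25b. Cfap20 fell 1.21-fold to 55.8 ± 4.89 CPM (adjusted p = 0.00274) and Ccdc65, of the nexin link, 1.52-fold to 2.13 ± 0.519 CPM (adjusted p = 0.0206). Ccdc146, named after its values were seen, went from 23 to 32 counts per control library to 2 to 5 counts with NETs (adjusted p = 0.000468). It had a mean under 1 CPM in both groups and passed the filter only through the control libraries, where it is high. The one rise was that of Dnal1, a dynein light chain, from 23.9 ± 0.152 to 27.2 ± 1.23 CPM (adjusted p = 0.0327). The rise of Dnal1 was lost on leaving out any single library other than NET replicate 2, and 0 genes of this list were then called higher except without control replicate 2. The call of Ccdc65 was lost without the second or the third control library (log2 fold changes -0.56 and -0.55) or without NET replicate 3 (-0.41).

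Most markers of ciliated cells were too low to be tested, while all 12 epithelial markers were tested. Of the 24 ciliated cell markers 11 were at 0 in every library, including Sntn, Ccdc153, Pifo, Sec14l3 and Cdhr3. Over all symbols 54.2% were at 0 and 25% were tested, and of the 24 markers 8 were tested. Of these 8, beside 20.2% and 18.7% of all tested genes, 3 rose and 0 fell in edgeR, also 0 at an unadjusted p under 0.05 and 0 in DESeq2 and limma-voom, with a median log2 fold change of 0.35. Fank1, a gene best known from the testis, rose 5.74-fold from 0.809 ± 0.240 to 4.74 ± 0.244 CPM (SD, n = 3, adjusted p = 3.25e-08). The alpha-tubulin gene Tuba1a rose 1.48-fold to 158 ± 5.75 CPM (adjusted p = 8.76e-08) and Dnai4, a dynein intermediate chain, 1.43-fold to 3.89 ± 0.491 CPM (adjusted p = 0.0118). Exons of Dnai4 overlap Mier1 on the other strand, and its call was lost without NET replicate 2 (log2 fold change 0.42). With library size alone 1 marker was called lower. The summed level of the list, 359 to 372 CPM in control libraries against 406 to 425 CPM in NET libraries, is mostly that of the general tubulin genes Tubb4b and Tuba1a.

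Among genes of centriole duplication and of the multiciliation switch more fell than rose. Deup1, Trp73, Foxn4 and Ccna1, which act in multiciliated cells, were at 0 in every library. Of 26 listed genes 19 were tested, and 3 rose and 8 fell in edgeR, beside 20.2% and 18.7% of all tested genes (median log2 fold change -0.06). Myb, a transcription factor gene also used by multiciliated cells, fell 1.43-fold to 5.70 ± 0.446 CPM (SD, n = 3, adjusted p = 0.00825). The centriole genes Cep135 and Ccp110 fell 1.41-fold and 1.29-fold (adjusted p = 0.000127 and 0.000372), and E2f5 and Poc1b, named after their values were seen, fell 1.23-fold and 1.17-fold (adjusted p = 0.0265 and 0.00748). Stil rose 1.22-fold, Cenpj 1.19-fold and Cep97 1.14-fold (adjusted p = 0.00103, 0.0128 and 0.0237). The count of falls was 4 without control replicate 1, 5 without NET replicate 2 and 4 without NET replicate 3, and that of rises 1 without control replicate 2. Myb (-0.43) was not called without control replicate 1, and Cenpj and Cep97 each lost their call in several settings, with log2 fold changes from 0.18 to 0.32 and from 0.12 to 0.22.

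Among 8 further genes of RFX factors and their partners, 5 were tested, 1 of which was called higher beside 20.2% of all tested genes, and Rfx4 and Rfx6 were at 0. Rfx7 rose 1.10-fold from 135 ± 3.58 to 148 ± 7.47 CPM (SD, n = 3, adjusted p = 0.0413 in edgeR), a call lost without control replicate 1 or 2 and without NET replicate 1 or 3, which left 0 rises. No gene of this list fell in edgeR (0 of 5), also 0 at an unadjusted p under 0.05 and 0 in DESeq2 and limma-voom, while library size alone called 1 lower. Rfx1 had a mean of 29.7 CPM in control libraries against 30.1 CPM in NET libraries (adjusted p = 0.878 in edgeR).

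Nearly all genes of the machinery shared with primary cilia were expressed, and their calls were no more frequent than among all tested genes. Of 39 genes of intraflagellar transport, the BBSome and cilium motors 38 were tested, and 4 rose and 7 fell, beside 20.2% and 18.7% of all tested genes (median log2 fold change 0.03). Bbs4, a BBSome subunit, fell 1.64-fold from 41.0 ± 3.55 to 25.04 ± 0.796 CPM (SD, n = 3, adjusted p = 3.53e-07), with exons that overlap Adpgk on the other strand. Bbs5 and Bbs1 fell 1.27-fold and 1.26-fold (adjusted p = 0.0178 and 0.0185), while the retrograde motor genes Dync2li1 and Dync2h1 rose 1.42-fold and 1.27-fold (adjusted p = 0.0187 and 0.00252) and the transport gene Ift43 by 0.26 on the log2 scale (adjusted p = 0.00668). The count of rises was 2 without NET replicate 3 and that of falls 4 without NET replicate 2. The calls of Dync2li1, Bbs5 and Bbs1 were each lost without at least 1 library, with log2 fold changes from 0.38 to 0.57, -0.41 to -0.27 and -0.44 to -0.26 over the alternatives.

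Of 39 genes of the primary cilium membrane and transition zone 37 were tested, and 6 rose and 6 fell, again beside 20.2% and 18.7% (median log2 fold change 0.05). Mks1, a transition zone gene, fell 2.27-fold from 8.66 ± 1.04 to 3.78 ± 0.620 CPM (SD, n = 3, adjusted p = 2.54e-06 in edgeR). The transition zone genes Tmem107 and Tmem67 fell 1.40-fold and 1.34-fold (adjusted p = 0.000265 and 0.00285). Pkd2, a ciliary calcium channel gene, rose 1.37-fold to 96.6 ± 5.45 CPM (adjusted p = 4.53e-06) and the receptor gene Gpr161 1.35-fold to 15.8 ± 0.417 CPM (adjusted p = 0.000353). Gli1, a target of Hedgehog signalling, rose 1.70-fold to 1.58 ± 0.454 CPM (adjusted p = 0.0365), with overlapping groups and a call lost without control replicate 1 or 3 or NET replicate 2 or 3 and with library size alone. Its log2 fold change ran from 0.59 to 0.97 over the alternatives. Exons of Gli1 overlap Arhgap9, and those of Tmem67 overlap Rbm12b2, each on the other strand.

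**Figure D4:**
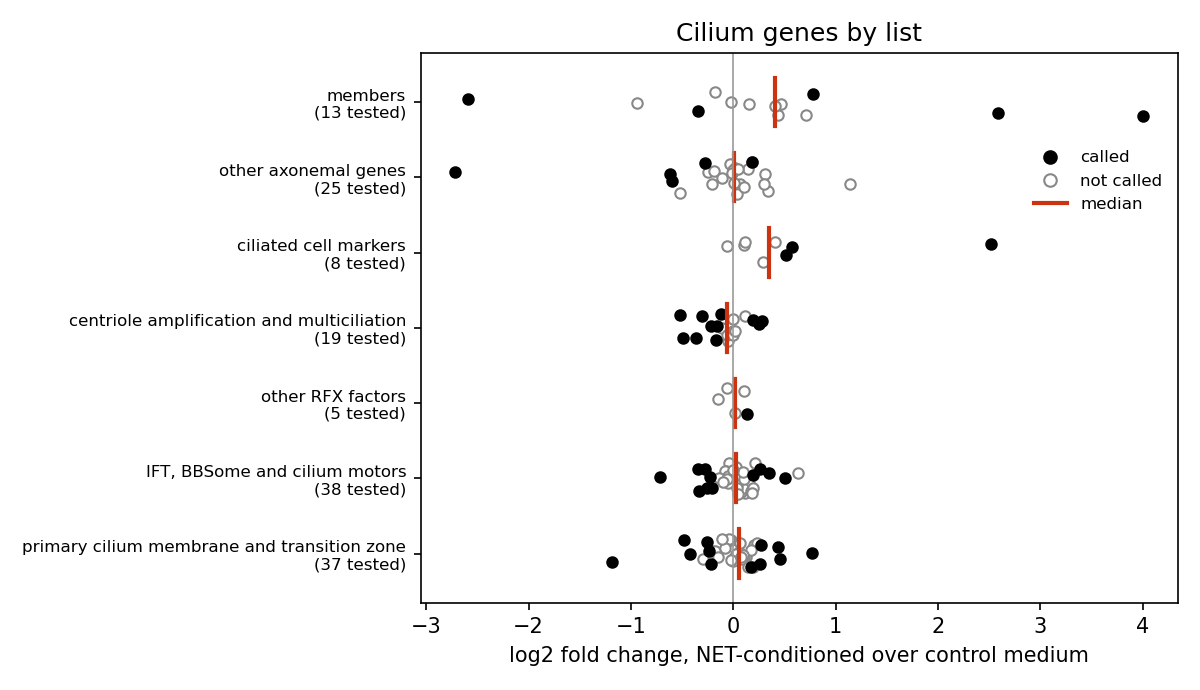
Log2 fold change of NET-conditioned over control medium for every tested gene of the set and of 6 further cilium lists. Points are genes, filled where called, and red bars are medians. Medians of the 4 lists with 5, 19, 38 and 37 tested genes and of the other axonemal genes lie between -0.06 and 0.05. Those of the members and of the ciliated cell markers lie at 0.41 and 0.35. Foxj1 (16.0-fold) is the rightmost point.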

How the data were processed

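RNA was sequenced from 6 samples of 410.4 cells, 3 per medium, grouped by sample title. A strand-preserving mRNA kit was used, per the labels' protocols. The authors deposited 1 table of whole-number counts per gene symbol with gene lengths. STAR 2.7.10a, featureCounts of Subread 2.0.3 and the build mm10 are named, per the submitters' processing notes. Of 38935 symbols matched to RefSeq, 11.6% overlapped their mm10 position, so the deposited coordinates follow another build or annotation, which the sources used here do not name. Even numbers made up 74.8% to 78.4% of low counts (1 to 20), so mates appear to have been counted singly. Strand and multi-mapping settings are likewise unnamed.

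Counts were fitted once over all genes with edgeR 4.0.16 in R 4.3.3 (TMM, filterByExpr with a minimum count of 10, robust glmQLFit, glmQLFTest, medium alone in the model). P-values were Benjamini-Hochberg adjusted over 13956 genes and called at 0.05. The fit was tested on simulated data, with changes planted only in genes above 1 CPM and the same spread set for all genes. Members under that level were not covered by this check. CPM and CPM per kb were computed from the deposited counts. The members and gene lists were chosen with earlier results of these data known. Values in every library were given for regulators, called members and the best expressed uncalled ones, and from each further list up to 3 genes called higher and 3 called lower, with at least 1 CPM, were named by size of change within each direction. No 2 libraries were identical, and each was counted once. Alternatives were 3 scalings, 2 filters, DESeq2 1.42.0, limma-voom (limma 3.58.1), halved counts, a replicate block and leaving out each library.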

Additional observations from a re-analysis of the deposited data

How the results depend on the processing

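Foxj1, Rfx2, Dnah2 and Enkur kept their calls under all 15 alternatives, and Tekt2 under the 13 in which it was tested (not with halved counts or at least 1 CPM in at least 3 libraries, where it did not pass the filter). The counts of members called were 2 to 3 higher and 2 to 3 lower throughout. The median log2 fold change of the members was -0.27 without the low-count filter, which added members with few counts, and -0.027 with at least 1 CPM in at least 3 libraries, which left 7, and it ran from 0.19 to 0.40 leaving out each replicate. Of the other axonemal genes 0 were called higher with upper-quartile factors, library size alone or no low-count filter, 2 with limma-voom, and 0 to 1 leaving out each replicate. With library size alone 1 ciliated cell marker was called lower, and 1 centriole and multiciliation gene higher. Leaving out each replicate, 1 to 2 genes of the centriole list were called higher and 4 to 7 lower. Of the other RFX factors 0 were called higher with upper-quartile factors, library size alone or no low-count filter and 0 to 1 leaving out each replicate, and 1 was called lower with library size alone. Of the transport, BBSome and motor genes 2 to 5 were called higher and 4 to 7 lower leaving out each replicate. The cause of these shifts was not tested.

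The replicate numbers are shared between the groups, but deviations from the group means of same-numbered libraries correlated at 0.118, -0.059 and 0.056 across genes, so the numbers were not taken to pair the samples. With the replicate block 2969 genes were called higher and 2713 lower, and the members called stayed at 3 and 2. Depth limits the members with few counts: 1 count is worth 0.0150 to 0.0332 CPM, and 25 members could not be tested.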
